A study of Canis lupus familiaris with 12 samples.

Results

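The EGF receptor family and its ligands were followed by RNASeq in MDCKII cells, an epithelial line from dog kidney. The genes were taken by name: the receptors EGFR, ERBB2, and ERBB3, and the ligands AREG, EREG, TGFA, HBEGF, BTC, and EPGN. Of these 9 genes, 6 were found among the 13672 genes of the deposited table (EGFR, ERBB2, ERBB3, EREG, TGFA, and HBEGF). AREG, BTC, and EPGN were not found under these symbols and were not analysed here.

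Cells of 4 genotypes were sequenced without treatment, with 3 libraries each and 12 in all. WT cells were compared with CGN-KO cells (KO of CGN, cingulin, a cytoplasmic protein of tight junctions), CGNL1-KO cells (KO of CGNL1, paracingulin, found at tight and adherens junctions), and double-KO cells (KO of both). The KO lines were made by CRISPR/Cas9, and each genotype is represented by 1 line, so that the genotype and the line cannot be told apart. The labels do not say whether the 3 libraries of a genotype came from separate cultures, and p-values then measure only the spread between these libraries, which may be technical. Libraries are named by the replicate number of their column, and the column of 1 double-KO library has no number and is called unnumbered. The sample labels list a double-KO replicate 1 that no column names, so the unnumbered library may be this replicate.

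EGFR is a membrane tyrosine kinase that forms dimers with itself or with ERBB2, which has no known ligand of its own, and ERBB3, which has a weak kinase and binds neuregulins. The ligands are made as membrane-bound precursors and are released by proteases such as ADAM17. In epithelia the receptors lie mostly at the basolateral membrane, and their signals pass through the RAS–ERK and PI3K–AKT pathways to control growth, migration, and survival. ERK signaling in turn induces genes that dampen it, such as Sprouty proteins, MAP kinase phosphatases, and ERRFI1 (MIG6), a direct inhibitor of the EGFR kinase.

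The reads recovered for the listed genes numbered between 16837532 and 30086076 per library. CGN was at 199 to 233 CPM in WT cells and 198 to 213 CPM in CGNL1-KO cells, against 47.0 to 56.5 CPM in CGN-KO and 39.7 to 45.3 CPM in double-KO cells. CGNL1 was at 7.74 to 12.3 CPM in WT and 5.04 to 6.92 CPM in CGN-KO cells, against 1.76 to 3.02 CPM in CGNL1-KO and 1.11 to 1.76 CPM in double-KO cells. The targeted genes therefore followed the labels in every library. All 6 epithelial markers of the list used here (CDH1, EPCAM, KRT8, KRT18, CDH16, and OCLN) were found, with a summed level of 5050 to 5530 CPM. CDH16 added little to this sum. It was at 0.828 to 1.94 CPM in WT, 2.32 to 5.14 CPM in CGN-KO, 1.49 to 3.48 CPM in CGNL1-KO, and 2.18 to 2.79 CPM in double-KO cells. Of the other lists, 1 of 5 fibroblast markers (PDGFRA, 2.7 to 11.1 CPM), 2 of 4 endothelial markers (KDR and VWF, summed level 0.690 to 2.98 CPM), and 1 of 4 immune markers (CD68, 0.560 to 1.34 CPM) were found. PDGFRA was at 2.7 to 5.48 CPM in WT, 5.88 to 11.1 CPM in CGN-KO, 3.75 to 9.81 CPM in CGNL1-KO, and 4.94 to 7.0 CPM in double-KO cells. KDR was at 1.12 to 1.77 CPM in WT, 0.758 to 0.938 CPM in CGN-KO, 1.92 to 2.41 CPM in CGNL1-KO, and 0.0969 to 0.284 CPM in double-KO cells. The part of these markers in the results was not tested. In bulk libraries such as these, fewer cells with an mRNA and less mRNA per cell cannot be told apart.

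EGFR and EREG moved in opposite directions: EGFR was higher and EREG was lower in each KO line than in WT cells. ERBB3 was lower in double-KO cells, and ERBB2, HBEGF, and TGFA did not pass the test in any KO line. The EGFR calls lay close to the threshold and did not hold once the shift of its chromosome was taken out. Here "rose" and "fell" mean an adjusted p below 0.05 (limma on log2(CPM + 1), Benjamini-Hochberg over the 12650 genes tested). Of the 6 genes, 2 passed in the CGN-KO line (19.0% of all genes tested), 2 in the CGNL1-KO line (10.3%), and 3 in the double-KO line (26.3%). None of the 6 genes changed at least 2-fold, against 1.31%, 0.617%, and 1.41% of all genes. The 3 comparisons share the WT libraries. Levels are compared within a gene only, since CPM is not scaled to transcript length.

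**Figure D1:**
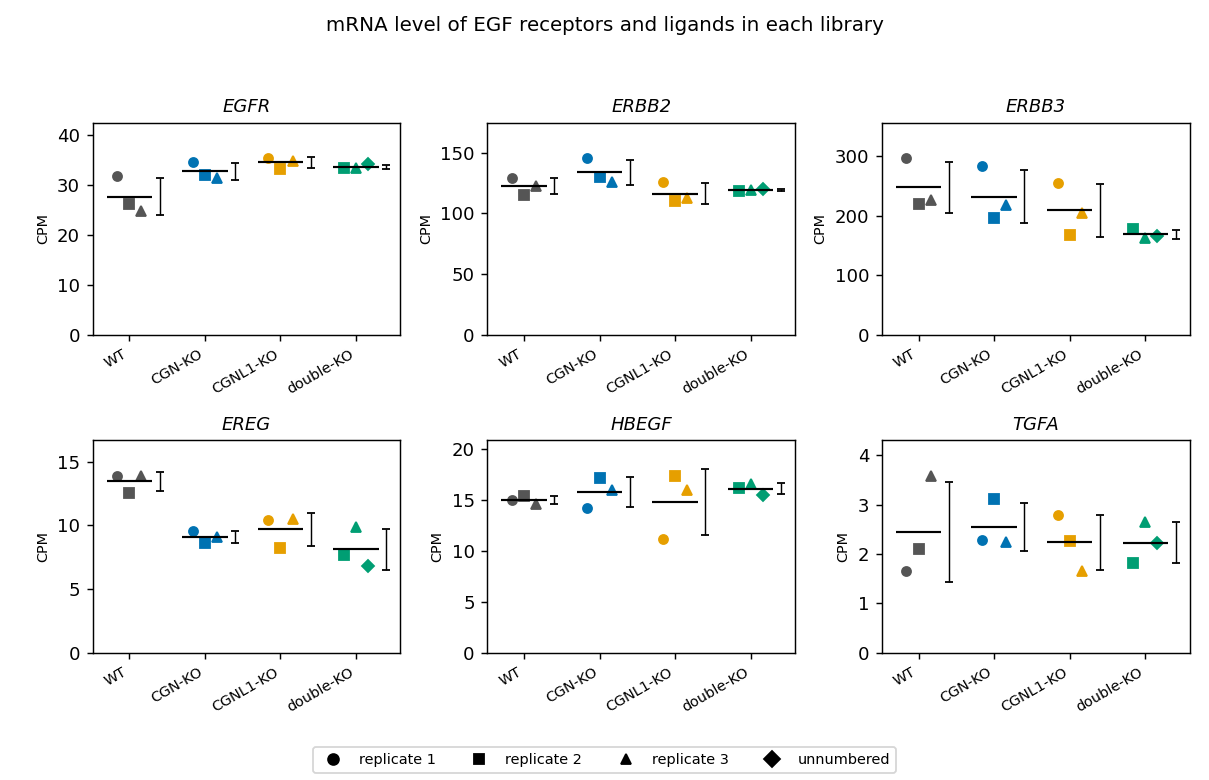
CPM (y axis, linear from 0) of the 3 receptors and 3 ligands in each of the 12 libraries, by genotype (x axis). The marker shape gives the replicate, the horizontal line the mean, and the bar beside it the SD (n = 3). The 3 WT points of EREG lie at 12.6 to 13.9 CPM, above every point of the KO lines, and in ERBB3 the circles (replicate 1) lie above the other points of their genotype.

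EGFR was at 31.8, 26.3, and 24.8 CPM in WT replicates 1, 2, and 3. It was at 34.7, 32.0, and 31.5 CPM in CGN-KO cells and at 35.4, 33.3, and 34.9 CPM in CGNL1-KO cells. In double-KO cells it was at 33.4 and 33.3 CPM in replicates 2 and 3 and at 34.1 CPM in the unnumbered library. The CGNL1-KO and double-KO libraries were all above the WT libraries, whereas the lowest CGN-KO library was below WT replicate 1. Among all genes, 24.4% had no overlap with WT for CGNL1-KO libraries and 45.0% for double-KO libraries. The means were 27.6 ± 3.68 CPM in WT, 32.7 ± 1.71 CPM in CGN-KO, 34.5 ± 1.12 CPM in CGNL1-KO, and 33.6 ± 0.444 CPM in double-KO cells (SD, n = 3).

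Genes that rose made up 11.2%, 6.81%, and 14.8% of all genes in the CGN-KO, CGNL1-KO, and double-KO lines. EGFR rose in CGN-KO cells by 0.24 ± 0.08 on the log2 scale (SE, adjusted p = 0.0447), in CGNL1-KO cells by 0.32 ± 0.08 (adjusted p = 0.0173), and in double-KO cells by 0.28 ± 0.08 (adjusted p = 0.0158). The calls depended on single libraries. In CGN-KO cells the call was lost when 1 of 9 of the 12 libraries was left out, namely each library except WT replicate 1 and CGNL1-KO replicates 1 and 2 (log2 fold change 0.17 to 0.27, adjusted p up to 0.178). It was also lost in a fit of CGN-KO and WT cells alone (adjusted p = 0.0905). In CGNL1-KO cells the call was lost without WT replicate 2 (0.29, adjusted p = 0.0831), WT replicate 3 (0.25, adjusted p = 0.0891), or CGNL1-KO replicate 3 (0.31, adjusted p = 0.0625), and in a fit of the compared groups alone (adjusted p = 0.0728). In double-KO cells it was lost without WT replicate 2 (0.25, adjusted p = 0.066), WT replicate 3 (0.21, adjusted p = 0.08), or the unnumbered library (0.27, adjusted p = 0.0523).

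The other genes on the chromosome of EGFR moved with it in double-KO cells. For 397 other tested genes placed on this chromosome, the median log2 fold change was 0.30 in double-KO cells, and 90.4% of them were above 0. The value of EGFR was higher than that of 45.3% of these genes. In CGN-KO and CGNL1-KO cells the medians of the same genes were 0.09 and 0.05, and EGFR was higher than 79.8% and 94.0% of them. With the median of its chromosome taken out of each gene, EGFR was at 0.15 in CGN-KO (adjusted p = 0.235), 0.27 in CGNL1-KO (adjusted p = 0.0577), and −0.02 in double-KO cells (adjusted p = 0.902), and no longer passed the test in any line. On this scale EGFR was lower in double-KO than in CGNL1-KO cells (−0.29, adjusted p = 0.039). For the other 5 genes the shift of the chromosome in double-KO cells was between −0.02 and 0.02.

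**Figure D2:**
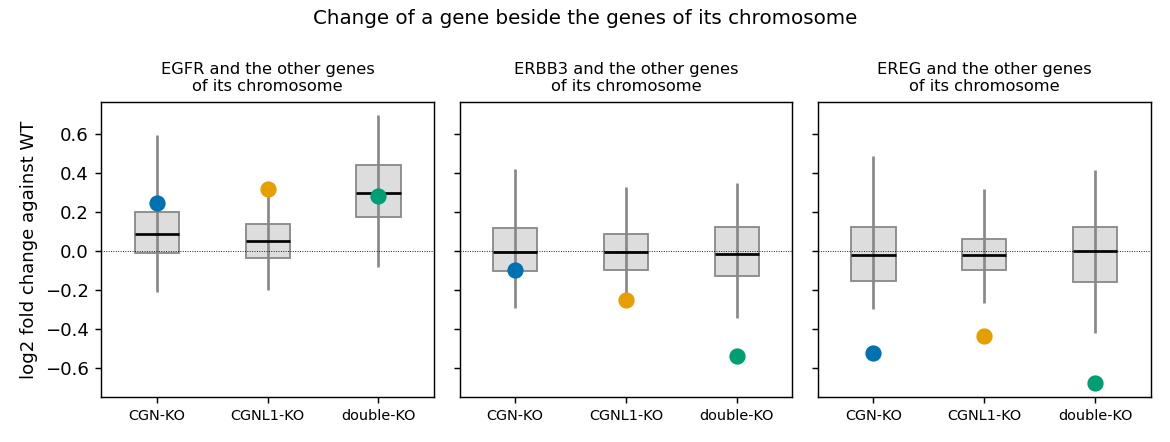
Log2 fold change against WT (y axis) of EGFR, ERBB3, and EREG (colored points) in each KO line (x axis), beside the other tested genes of the same chromosome. Boxes span the quartiles, the black line is the median, and the gray line runs from the 5th to the 95th percentile. In double-KO cells EGFR (0.28) lies at the median of its chromosome (0.30), whereas ERBB3 (−0.54) and EREG (−0.68) lie below the 5th percentile of theirs.

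ERBB2, the preferred dimerization partner in the family, was at 129, 116, and 123 CPM in WT cells. It was at 146, 130.2, and 126 CPM in CGN-KO cells and at 126, 110.2, and 113 CPM in CGNL1-KO cells. The double-KO libraries were at 118 and 119.6 CPM in replicates 2 and 3 and at 120.1 CPM in the unnumbered library. The libraries of each KO line overlapped those of WT cells. The log2 fold change against WT was 0.13 in CGN-KO cells (95% interval −0.01 to 0.27, adjusted p = 0.199), −0.07 in CGNL1-KO cells (−0.21 to 0.07, adjusted p = 0.567), and −0.04 in double-KO cells (−0.18 to 0.10, adjusted p = 0.732).

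ERBB3, the neuregulin receptor that couples strongly to PI3K, was at 297, 221, and 226 CPM in WT cells. It was at 283, 196, and 219 CPM in CGN-KO cells and at 255, 167, and 205 CPM in CGNL1-KO cells. The double-KO libraries held 178 and 163 CPM in replicates 2 and 3 and at 165 CPM in the unnumbered library. All 3 double-KO libraries were below the WT and the CGN-KO libraries but overlapped those of CGNL1-KO cells. Among all genes, 45.0% had no overlap between double-KO and WT libraries, and 30.5% had none between double-KO and CGN-KO libraries. The means were 248 ± 42.7, 233 ± 45.3, 209 ± 44.2, and 169 ± 7.83 CPM in WT, CGN-KO, CGNL1-KO, and double-KO cells (SD, n = 3).

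ERBB3 fell by 0.54 ± 0.14 on the log2 scale in double-KO cells (SE, adjusted p = 0.0108). Without WT replicate 1, its highest library, the change was −0.40 and did not pass (adjusted p = 0.0625). The log2 fold change was −0.10 in CGN-KO cells (95% interval −0.40 to 0.21, adjusted p = 0.686) and −0.25 in CGNL1-KO cells (−0.56 to 0.05, adjusted p = 0.329). The spread of ERBB3 within genotypes (SD of log2 values, 0.24) was larger than that of 94.9% of all genes tested.

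The libraries numbered 1 stood apart in the receptors. ERBB3 in replicate 1 was 1.33, 1.37, and 1.37 times the mean of replicates 2 and 3 in the WT, CGN-KO, and CGNL1-KO genotypes. EGFR and ERBB2 were also highest in replicate 1 of these 3 genotypes, with ratios of 1.04 to 1.24 for EGFR and 1.08 to 1.14 for ERBB2. A replicate 1 that is highest in all 3 genotypes was found for 15.6% of all genes tested. With the libraries numbered 1 left out, a choice made after seeing the data, ERBB3 was at −0.27 in CGNL1-KO cells and passed the test there (adjusted p = 0.00682).

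EREG (epiregulin), a ligand of EGFR and ERBB4, was at 13.9, 12.6, and 13.9 CPM in WT cells. It was at 9.53, 8.59, and 9.09 CPM in CGN-KO cells and at 10.4, 8.21, and 10.5 CPM in CGNL1-KO cells. In double-KO cells it was at 7.68 and 9.86 CPM in replicates 2 and 3 and at 6.78 CPM in the unnumbered library. All 9 KO libraries were below the lowest WT library. Libraries without overlap were found for 35.9%, 24.4%, and 45.0% of all genes in the 3 lines. The means were 13.5 ± 0.762, 9.07 ± 0.469, 9.72 ± 1.30, and 8.11 ± 1.59 CPM in WT, CGN-KO, CGNL1-KO, and double-KO cells (SD, n = 3), from 135 to 291 reads per library.

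EREG fell by 0.52 ± 0.12 on the log2 scale in CGN-KO cells (SE, adjusted p = 0.00591), by 0.44 ± 0.12 in CGNL1-KO cells (adjusted p = 0.0274), and by 0.68 ± 0.12 in double-KO cells (adjusted p = 0.000589). Genes that fell made up 7.87%, 3.49%, and 11.5% of all genes in these comparisons. The calls in CGN-KO and double-KO cells remained when any 1 library was left out. The call in CGNL1-KO cells was lost without WT replicate 1 (−0.42, adjusted p = 0.0813), WT replicate 3 (−0.42, adjusted p = 0.0931), or CGNL1-KO replicate 2 (−0.33, adjusted p = 0.112). In the RefSeq gene order of a dog assembly, EREG lies 2 genes from AREG and 3 genes from EPGN, and the genes between them are named only by locus numbers.

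HBEGF (heparin-binding EGF-like growth factor), which binds EGFR and ERBB4, was at 15.0, 15.4, and 14.6 CPM in WT cells. It was at 14.2, 17.2, and 15.9 CPM in CGN-KO cells and at 11.1, 17.4, and 15.9 CPM in CGNL1-KO cells. The double-KO libraries held 16.2 and 16.6 CPM in replicates 2 and 3 and at 15.5 CPM in the unnumbered library. The double-KO libraries were above the WT libraries by a small margin, and those of the single-KO lines overlapped them. Among all genes, 45.0% had no overlap between double-KO and WT libraries. The log2 fold change was 0.06 in CGN-KO (95% interval −0.19 to 0.32), −0.04 in CGNL1-KO (−0.30 to 0.22), and 0.09 in double-KO cells (−0.16 to 0.35), with adjusted p-values of 0.756, 0.891, and 0.614.

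TGFA (transforming growth factor alpha), a ligand of EGFR, was the least covered of the 6 genes, with 28 to 75 reads per library. It was at 1.65, 2.10, and 3.58 CPM in WT cells, 2.27, 3.11, and 2.24 CPM in CGN-KO cells, and 2.79, 2.26, and 1.66 CPM in CGNL1-KO cells. In double-KO cells it was at 1.82 and 2.64 CPM in replicates 2 and 3 and at 2.23 CPM in the unnumbered library. All groups overlapped, and the WT libraries alone spanned the full range of the 12. The log2 fold change was 0.07 in CGN-KO (95% interval −0.33 to 0.47), −0.07 in CGNL1-KO (−0.47 to 0.34), and −0.06 in double-KO cells (−0.46 to 0.34), with adjusted p-values of 0.834, 0.884, and 0.841. At this depth and spread a difference of the size of these intervals could have gone undetected. The intervals are not adjusted for the 12650 genes tested, so a larger difference could also have failed the test.

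**Figure D3:**
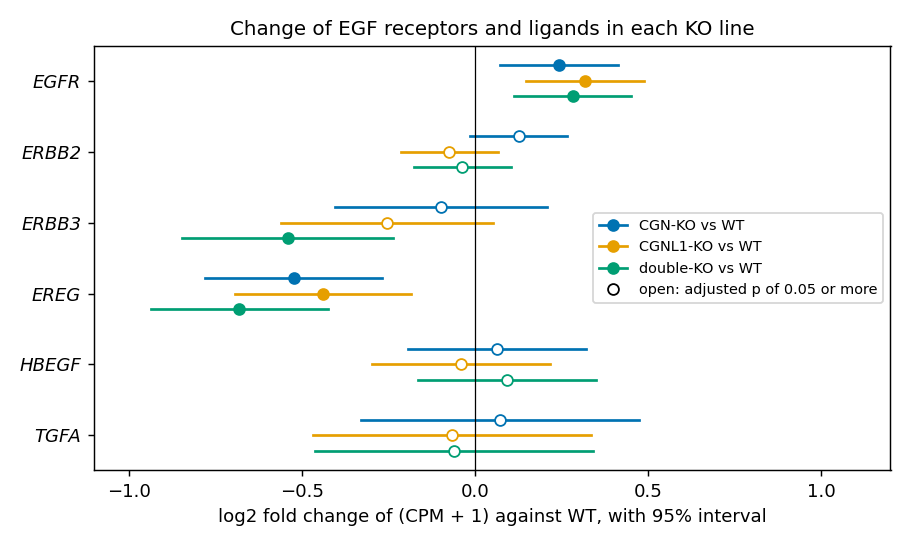
Log2 fold change of (CPM + 1) against WT (x axis) with its 95% interval for the 6 genes (y axis) in the 3 KO lines (colors). Filled points have an adjusted p below 0.05. The EGFR points lie at 0.24 to 0.32 and the EREG points at −0.68 to −0.44, and the intervals of ERBB2, HBEGF, and TGFA include 0 in every line.

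The KO lines were also compared with each other, to ask whether the genes differ by which protein was lost. None of the 6 genes passed when CGN-KO was set against CGNL1-KO (5.19% of all genes did), double-KO against CGN-KO (8.84%), or double-KO against CGNL1-KO (14.4%). At an unadjusted p below 0.05 there were 1, 2, and 0 genes in these comparisons, and edgeR and DESeq2 on the recovered reads gave 0 in each. ERBB2 was higher in CGN-KO than in CGNL1-KO cells by 0.20 ± 0.07 on the log2 scale (SE, adjusted p = 0.101). A block of the replicate number spanned all 12 libraries, and the pairing of these 2 lines by number was taken from these same data. With this block the difference passed (0.20, adjusted p = 0.0106). Without the block it passed when CGNL1-KO replicate 1 was left out (0.26, adjusted p = 0.0181), and the difference was smallest, 0.14, without CGN-KO replicate 1. ERBB2 was lower in double-KO than in CGN-KO cells by a log2 difference of −0.16 ± 0.07 (adjusted p = 0.153), with every double-KO library below every CGN-KO library (30.5% of all genes had no overlap there). Without CGN-KO replicate 1 this difference was −0.10 (adjusted p = 0.529).

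For ERBB3 the log2 difference between double-KO and CGN-KO cells was −0.44 ± 0.14 (SE, adjusted p = 0.0697). It passed the test without WT replicate 1 (adjusted p = 0.047), CGN-KO replicate 2 (−0.56, adjusted p = 0.0354), CGNL1-KO replicate 1 (adjusted p = 0.0196), or CGNL1-KO replicate 2 (adjusted p = 0.0308), and in a fit of the 2 lines alone (adjusted p = 0.0082). Without CGN-KO replicate 1 the difference shrank to −0.29 (adjusted p = 0.284). Between double-KO and CGNL1-KO cells the difference was −0.29 ± 0.14 (adjusted p = 0.214), with −0.13 without CGNL1-KO replicate 1 (adjusted p = 0.565) and −0.44 without CGNL1-KO replicate 2 (adjusted p = 0.0404). For EREG the differences between lines were −0.08 (CGN-KO against CGNL1-KO, 95% interval −0.34 to 0.17), −0.16 (double-KO against CGN-KO, −0.41 to 0.10), and −0.24 (double-KO against CGNL1-KO, −0.50 to 0.01). The EREG mean was lowest in double-KO cells, followed by the CGN-KO and then the CGNL1-KO line, and no neighbors in this order passed a test of their difference. For EGFR the differences were −0.08 (−0.24 to 0.10), 0.04 (−0.13 to 0.21), and −0.04 (−0.21 to 0.13) in the same order.

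A test of any difference among the 4 genotypes (limma's moderated F test) passed for EREG (adjusted p = 0.00239), EGFR (adjusted p = 0.021), and ERBB3 (adjusted p = 0.036), against 29.9% of all genes. It did not pass for ERBB2 (adjusted p = 0.105), HBEGF (adjusted p = 0.763), or TGFA (adjusted p = 0.902). For a difference among the genotypes, edgeR gave 3 of the 6 genes and DESeq2 gave 2. The change in double-KO cells was further set against the sum of the changes in the single-KO lines on the log2 scale. None of the 6 genes passed in limma (10.3% of all genes did), 1 had an unadjusted p below 0.05, and edgeR and DESeq2 gave 0. That gene was EGFR, which was 0.28 lower than the sum (log2 difference −0.28 ± 0.11, adjusted p = 0.137), while EREG was higher than the sum (0.28 ± 0.17, adjusted p = 0.341).

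Of the further family members, EGF, NRG1, and ERBB4 were measured, and EGF in CGN-KO and double-KO cells and NRG1 in each KO line had a larger log2 fold change than any of the 6 genes above. EGF, the founding ligand of EGFR, was at 39.0, 25.8, and 32.0 CPM in WT cells and at 101, 71.5, and 86.2 CPM in CGN-KO cells. It was at 41.7, 26.8, and 32.8 CPM in CGNL1-KO cells, and in double-KO cells at 68.0 and 59.2 CPM in replicates 2 and 3 and at 64.8 CPM in the unnumbered library. EGF rose by 1.40 ± 0.15 on the log2 scale in CGN-KO cells (SE, adjusted p = 7.34e-06) and by 0.98 ± 0.15 in double-KO cells (adjusted p = 0.00019), with all libraries above WT. Libraries without overlap with WT were found for 35.9% and 45.0% of all genes in these lines. In CGNL1-KO cells its libraries overlapped WT (0.06, adjusted p = 0.871). The difference between CGN-KO and CGNL1-KO cells was 1.34 (adjusted p = 4.53e-05). EGF was highest in the replicate numbered 1 of each of the same 3 genotypes, at 1.28 to 1.40 times the mean of replicates 2 and 3.

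NRG1 (neuregulin), a ligand of ERBB3 and ERBB4, was at 36.0, 45.4, and 45.8 CPM in WT cells and at 59.1, 85.8, and 78.0 CPM in CGN-KO cells. It was at 68.0, 101, and 85.8 CPM in CGNL1-KO cells, and in double-KO cells at 84.3 and 99.5 CPM in replicates 2 and 3 and at 93.2 CPM in the unnumbered library. Every KO library was above every WT library. Libraries without overlap with WT were found for 35.9%, 24.4%, and 45.0% of all genes in the CGN-KO, CGNL1-KO, and double-KO lines. NRG1 rose by 0.79 ± 0.14 in CGN-KO (adjusted p = 0.00079), 0.98 ± 0.14 in CGNL1-KO (adjusted p = 0.000213), and 1.11 ± 0.14 in double-KO cells (adjusted p = 2.41e-05). It was lowest in the replicate numbered 1 of WT, CGN-KO, and CGNL1-KO, at 0.721 to 0.789 times the mean of replicates 2 and 3. A replicate 1 that is lowest in these 3 genotypes was found for 13.3% of all genes tested. ERBB4, the fourth receptor of the family, was at 17.0, 17.6, and 17.8 CPM in WT cells and at 13.1, 10.2, and 12.7 CPM in CGNL1-KO cells, where it fell by 0.51 ± 0.09 (adjusted p = 0.00139). It was at 17.4, 18.2, and 16.1 CPM in CGN-KO cells (−0.02, adjusted p = 0.922), and in double-KO cells at 16.0 and 16.4 CPM in replicates 2 and 3 and 15.0 CPM in the unnumbered library (−0.14, adjusted p = 0.289). NRG2, NRG3, and NRG4 were not found under these symbols.

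**Figure D4:**
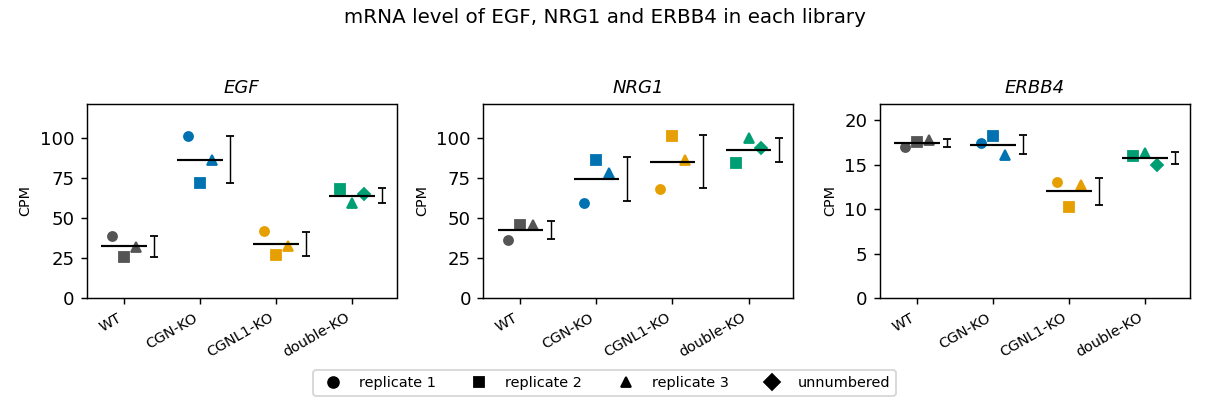
CPM (y axis, linear from 0) of EGF, NRG1, and ERBB4 in each library by genotype (x axis), with the mean (line) and SD (bar, n = 3), and the replicate as the marker shape. EGF is separated from WT in CGN-KO and double-KO cells, NRG1 in all 3 KO lines, and ERBB4 is lowest in CGNL1-KO cells (10.2 to 13.1 CPM).

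The genes around the receptors were read from 6 lists of 88 genes, of which 84 were tested (DUSP4 was also not found). The lists were chosen with earlier results of these data known, so the shares below describe the lists and were not tested against all genes. In CGN-KO cells 27 passed (11 rose and 16 fell, 32.1% against 19.0% of all genes), in CGNL1-KO cells 21 (7 rose and 14 fell, 25.0% against 10.3%), and in double-KO cells 34 (12 rose and 22 fell, 40.5% against 26.3%). The list with the most genes that fell was the negative regulators of the receptors and of ERK. Of 21 tested, 2 rose and 9 fell in CGN-KO, 2 rose and 6 fell in CGNL1-KO, and 1 rose and 10 fell in double-KO cells. The shares that passed were 52.4%, 38.1%, and 52.4%, against 19.0%, 10.3%, and 26.3% of all genes. The median log2 fold changes of the list were −0.19, −0.20, and −0.12, whereas the medians of all genes were between −0.004 and 0.

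Within this list, ERRFI1, the inhibitor of the EGFR kinase, was at 120.4 to 142 CPM in WT, 83.1 to 96.0 CPM in CGN-KO, 96.7 to 104 CPM in CGNL1-KO, and 64.1 to 75.2 CPM in double-KO cells. It fell by 0.55 ± 0.07 in CGN-KO (SE, adjusted p = 6.62e-05), 0.36 ± 0.07 in CGNL1-KO (adjusted p = 0.00432), and 0.87 ± 0.07 in double-KO cells (adjusted p = 4.83e-07). LRIG1, a membrane protein that promotes the degradation of ERBB receptors, was at 23.4 to 27.5 CPM in WT cells and fell to 12.9 to 16.6 CPM in CGN-KO, 15.7 to 19.0 CPM in CGNL1-KO, and 15.5 to 17.1 CPM in double-KO cells (adjusted p = 4.61e-05, 0.00236, and 0.000307). SPRY2, a Sprouty inhibitor of the ERK pathway, was at 24.3 to 27.0 CPM in WT cells and fell by 0.43, 0.41, and 0.45 in the 3 lines (adjusted p = 0.000639, 0.00171, and 0.000355). Its paralog SPRY1 fell in CGN-KO (−0.76, adjusted p = 0.000358) and double-KO cells (−0.79, adjusted p = 0.000184), and was at −0.31 in CGNL1-KO cells (adjusted p = 0.139). The genes of this list that rose were PTPN1 and LRIG3. PTPN1 rose by 0.37, 0.39, and 0.37 in the 3 lines (adjusted p = 0.00145, 0.00184, and 0.00112). LRIG3 rose by 0.33 in CGN-KO (adjusted p = 0.00443) and 0.30 in CGNL1-KO cells (adjusted p = 0.0145), and was at −0.01 in double-KO cells (adjusted p = 0.929). ERRFI1, LRIG1, and SPRY1 were highest in the replicate numbered 1 of the 3 genotypes with a column of this number. The ratios to the mean of replicates 2 and 3 were 1.05 to 1.15, 1.15 to 1.25, and 1.16 to 1.30.

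Of 12 ERK response genes, 2 rose and 2 fell in CGN-KO, 1 rose and 3 fell in CGNL1-KO, and 2 rose and 2 fell in double-KO cells, which is 33.3% in each line against 19.0%, 10.3%, and 26.3% of all genes. ETV5, an ETS transcription factor induced by receptor tyrosine kinases, was at 7.23 to 11.5 CPM in WT, 2.67 to 4.39 CPM in CGN-KO, 4.24 to 5.98 CPM in CGNL1-KO, and 2.44 to 2.73 CPM in double-KO cells. It fell by 1.11 ± 0.17 (adjusted p = 0.000198), 0.64 ± 0.17 (adjusted p = 0.0229), and 1.39 ± 0.17 (adjusted p = 1.68e-05). The call in CGNL1-KO cells was lost without WT replicate 1 (−0.44, adjusted p = 0.112), CGNL1-KO replicate 2 (−0.53, adjusted p = 0.0845), or CGNL1-KO replicate 3 (−0.65, adjusted p = 0.0615). Its relative ETV4 fell by 0.38, 0.34, and 0.65 (adjusted p = 0.003, 0.00945, and 1.76e-05), and the call in CGNL1-KO cells was lost without WT replicate 1 (−0.27, adjusted p = 0.0501). In the 3 genotypes with a column numbered 1, this library was the highest for ETV5 (1.26 to 1.58 times the mean of replicates 2 and 3) and ETV4 (1.05 to 1.18 times). JUN, an AP-1 subunit, moved the other way, from 48.4 to 52.9 CPM in WT to 64.1 to 78.2 CPM in CGN-KO (adjusted p = 0.00291) and 74.2 to 77.0 CPM in double-KO cells (adjusted p = 0.000399), and in CGNL1-KO cells its libraries overlapped WT (0.20, adjusted p = 0.24). PHLDA1 rose in CGNL1-KO cells (0.44, adjusted p = 0.018), and the call was lost without WT replicate 1 (0.34, adjusted p = 0.0878) or CGNL1-KO replicate 3 (0.42, adjusted p = 0.0704). It was at 0.24 in CGN-KO (adjusted p = 0.144) and −0.04 in double-KO cells (adjusted p = 0.844).

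Of 27 adaptors and signaling proteins, 4 rose and 2 fell in CGN-KO, 3 rose and 2 fell in CGNL1-KO, and 5 rose and 4 fell in double-KO cells. The shares that passed were 22.2%, 18.5%, and 33.3%, near those of all genes in CGN-KO and double-KO cells (19.0% and 26.3%) and against 10.3% in CGNL1-KO cells. Among the regulatory PI3K subunits, PIK3R1 was at 19.2 to 22.2 CPM in WT and 31.8 to 33.6 CPM in CGN-KO cells (0.68 ± 0.08, adjusted p = 2.19e-05), and at 23.9 to 27.0 CPM in double-KO cells (0.30 ± 0.08, adjusted p = 0.0112), whereas the CGNL1-KO libraries overlapped WT (0.12, adjusted p = 0.446). The call in double-KO cells was lost without WT replicate 2 (0.27, adjusted p = 0.0527) or double-KO replicate 2 (0.26, adjusted p = 0.0614). PIK3R2 rose by 0.52, 0.35, and 0.41 in the 3 lines (adjusted p = 0.000749, 0.0208, and 0.0034), and its call in CGNL1-KO cells was lost without WT replicate 2 (0.31, adjusted p = 0.1), CGNL1-KO replicate 1 (0.30, adjusted p = 0.0636), or CGNL1-KO replicate 3 (0.36, adjusted p = 0.0547). PIK3R3 rose in CGN-KO (0.41, adjusted p = 0.00398) and CGNL1-KO cells (0.43, adjusted p = 0.00464), and was at 0.15 in double-KO cells (adjusted p = 0.231). GAB1, a docking adaptor downstream of the receptors, fell by 0.47 ± 0.11 in double-KO cells (adjusted p = 0.00544).

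Of the 9 genes of ligand release and maturation, 1 passed in each of the CGNL1-KO and double-KO lines. In CGN-KO cells 0 passed in limma, edgeR, and DESeq2, and 2 had an unadjusted p below 0.05 in limma. These are shares of 0% against 19.0% of all genes in CGN-KO cells, and of 11.1% against 10.3% and 26.3% in the CGNL1-KO and double-KO lines. FURIN, a proprotein convertase, fell by 0.28 in CGNL1-KO cells (adjusted p = 0.0137), and this call was lost without WT replicate 3 (−0.24, adjusted p = 0.0655), CGNL1-KO replicate 2 (−0.24, adjusted p = 0.0522), or CGNL1-KO replicate 3 (−0.23, adjusted p = 0.0786), and in a fit of the compared groups alone (adjusted p = 0.0634). CNIH1, a cargo receptor for ligand precursors, fell by 0.20 in double-KO cells (adjusted p = 0.0128), and not without double-KO replicate 3 (−0.17, adjusted p = 0.0678). Of 12 trafficking genes, 1 rose and 3 fell in CGN-KO, 0 rose and 1 fell in CGNL1-KO, and 2 rose and 5 fell in double-KO cells (33.3%, 8.33%, and 58.3%, against 19.0%, 10.3%, and 26.3% of all genes). EPN1, an endocytic adaptor, rose in CGN-KO (0.33, adjusted p = 0.00757) and double-KO cells (0.48, adjusted p = 0.000344), and UBASH3B, which restrains CBL-driven receptor degradation, fell by 0.42, 0.35, and 0.35 (adjusted p = 0.000937, 0.00734, and 0.00299). The call of UBASH3B in CGNL1-KO cells was lost without WT replicate 2 (−0.29, adjusted p = 0.0504).

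**Figure D5:**
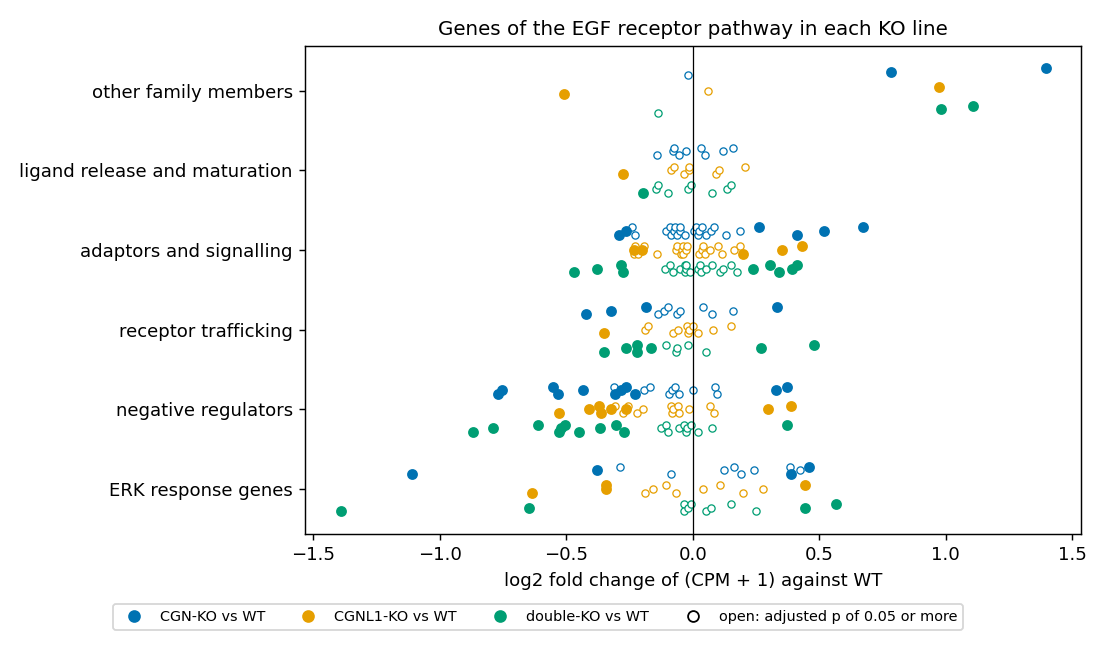
Log2 fold change of (CPM + 1) against WT (x axis) of the 84 tested genes of 6 lists (y axis) in the 3 KO lines (colors). Filled points have an adjusted p below 0.05. Among the negative regulators most filled points lie to the left of 0, and the points farthest to the left are ETV5 (−1.11 and −1.39) among the ERK response genes.

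Over the 12 libraries, the genes with the profile most like that of EGFR were MTCH1 (Pearson's r = 0.973), PIGT (0.966), and MSMO1 (0.933). For ERBB3 they were SOWAHC (0.976), VSIR (0.970), and VGLL4 (0.966), and for EREG they were HMGA2 (0.943), TANC1 (0.941), and ITPKC (0.939). These values describe the log2(CPM + 1) profiles of 12 libraries in 4 genotypes, which share the genotype differences, and for ERBB3 also the offset of the libraries numbered 1. The members themselves were less alike, with r = −0.614 between EGFR and EREG, 0.664 between ERBB3 and ERBB2, and 0.655 between ERBB3 and EREG.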

How the data were processed

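RNASeq libraries of MDCKII cells were made with a TruSeq kit. The authors mapped reads to canFam3 (STAR version 2.7.0f), assigned them to genes (HTSeq version 0.9.1), and deposited CPM scaled by the edgeR library size with its TMM factor, treated here as a signal. Every value of every library (tolerance 0.02 reads) was a whole number of reads, which were recovered. Strand setting and annotation release are not given in the sources used here. Gene names in the form of a date were left as they are.

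The 12650 genes above 1 CPM in at least 3 libraries were tested with limma (version 3.58.1, R version 4.3.3; eBayes with a trend) on log2(CPM + 1), a scale that understates the change of low genes, in 1 fit of the 4 genotypes without a block. The scripts were tested on simulated data. Alternatives were edgeR (version 4.0.16) and DESeq2 (version 1.42.0) on the recovered reads, a pseudocount of 0.25, no filter, other scalings, a replicate block, the compared groups alone, and leaving out each library. Libraries of the CGN-KO and CGNL1-KO lines that share a number deviated together from their group means (correlations 0.632, 0.475, and 0.179), so their numbers were taken as pairs from the data, not from the labels. Those of other genotypes were below 0.1 in at least 1 pair.

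Pathway genes are named where they changed at least 2-fold or had the 2 largest changes of their list among those past the test in a KO line, and like genes are the 3 with the highest correlation. PTPN1 and LRIG3 are named in addition, as the negative regulators that rose. The members and lists were chosen with earlier results of these data known. RefSeq genes of UU_Cfam_GSD_1.0, another assembly than that of the files, gave gene order and chromosomes only, for 11752 tested genes (92.9%). Coordinates and sequences are not used here.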

Additional observations from a re-analysis of the deposited data

Results flagged for a closer look

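The results below are differences between KO lines, or between double-KO cells and the sum of the single-KO changes, in genes around the receptors that passed limma's test of the difference itself (log2 differences, adjusted over all genes tested). None of the 6 receptors and ligands was among them. Values are given only for genes named in the text by the size of their change. The counts are over all 84 tested genes of the lists, which were chosen with earlier results of these data known.

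With CGN-KO set against CGNL1-KO, 7 of the 84 genes passed (8.33%, against 5.19% of all genes), 6 higher and 1 lower in CGN-KO cells. The 4 named ones were EGF (1.34, adjusted p = 4.53e-05), ERBB4 (0.49, adjusted p = 0.00321), PIK3R1 (0.56, adjusted p = 0.000469), and SPRY1 (−0.45, adjusted p = 0.0443). Between double-KO and CGN-KO cells 8 passed (9.52%, against 8.84% of all genes), 2 higher and 6 lower in double-KO cells. The 3 named ones were ERRFI1 (−0.31, adjusted p = 0.0144), ETV4 (−0.27, adjusted p = 0.0416), and PIK3R1 (−0.37, adjusted p = 0.00957).

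Between double-KO and CGNL1-KO cells 18 passed (21.4%, against 14.4% of all genes), 10 higher and 8 lower in double-KO cells. Of the named ones, those higher were EGF (0.92, adjusted p = 0.000771), EPN1 (0.33, adjusted p = 0.0115), ERBB4 (0.37, adjusted p = 0.011), and JUN (0.37, adjusted p = 0.0157). Those lower were ERRFI1 (−0.50, adjusted p = 0.000307), ETV4 (−0.30, adjusted p = 0.0158), ETV5 (−0.75, adjusted p = 0.00658), PHLDA1 (−0.48, adjusted p = 0.00908), PIK3R3 (−0.28, adjusted p = 0.0461), and SPRY1 (−0.48, adjusted p = 0.0142).

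The change in double-KO cells differed from the sum of the single-KO changes for 14 of the 84 genes (16.7%, against 10.3% of all genes), 5 above and 9 below the sum. Of the named ones, it was above the sum for LRIG1 (0.69, adjusted p = 0.00498), SPRY2 (0.40, adjusted p = 0.0252), and UBASH3B (0.42, adjusted p = 0.0209). It was below the sum for NRG1 (−0.65, adjusted p = 0.0463), PHLDA1 (−0.72, adjusted p = 0.00801), PIK3R1 (−0.49, adjusted p = 0.0129), PIK3R2 (−0.46, adjusted p = 0.0322), and PIK3R3 (−0.69, adjusted p = 0.00211).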

How the results depend on the processing

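Of the values of single genes under the alternatives, 1941 kept their direction and side of the threshold, 40 lost the call, 29 gained one, and 33 changed sign; the cause was not tested. Counts of members called moved from 2 to 1 in CGN-KO and in CGNL1-KO against WT with the compared groups alone or the chromosome shift taken out (leaving out 1 library each: 1 to 2 and 0 to 2). The CGNL1-KO count rose to 3 with the replicate block or without the libraries numbered 1, where ERBB3 passed. The double-KO count against WT fell from 3 to 2 with the chromosome shift taken out, where EGFR was lost (2 to 3 with 1 library left out). Over all genes, 2699 of 11752 passed in double-KO against WT with this shift taken out, and 3333 of 12650 passed without this step. Member counts moved from 0 to 1 between CGN-KO and CGNL1-KO cells (totals without TMM, replicate block, libraries numbered 1 left out). They did so between double-KO and CGN-KO cells (replicate block, compared groups alone, libraries numbered 1 left out) and between double-KO and CGNL1-KO cells (chromosome shift). They also did so beyond the sum (libraries numbered 1 left out, chromosome shift), and each of these counts was 0 to 1 with 1 library left out. Among the 4 genotypes the count was 3, and 2 in DESeq2 (1 to 4 with 1 library left out, 1 without WT replicate 3). Pathway genes in CGNL1-KO cells moved from 21 to 32 without the libraries numbered 1 (13 to 24 with 1 library left out, 13 without CGNL1-KO replicate 3). Removal of the libraries numbered 1 and of the chromosome shift was chosen after seeing the data. The unnumbered double-KO library stayed in when the libraries numbered 1 were left out, so only the other genotypes lost a library. The replicate block gave 1152 genes against 656 between CGN-KO and CGNL1-KO cells. In this block the unnumbered library had a level of its own, so double-KO values rested on replicates 2 and 3. In comparisons whose numbers were not taken as pairs, the block brought ERBB3 past the test in CGNL1-KO against WT (−0.25, adjusted p = 0.00576). It also did so in double-KO against CGN-KO cells (−0.28, adjusted p = 0.0151). Deviations of same-numbered libraries correlated at 0.329, 0.371, and 0.011 between WT and CGNL1-KO cells, and at −0.233 and −0.123 between CGN-KO and double-KO cells. With the block, values changed sign for ERBB2 (0.014, double-KO against WT), HBEGF (−0.028, double-KO against CGN-KO), EGFR (0.007, double-KO against CGNL1-KO), and TGFA (−0.032, double-KO against CGNL1-KO). Without the libraries numbered 1 they did for TGFA (−0.045, CGN-KO against WT), HBEGF (0.14, CGNL1-KO against WT; −0.008, CGN-KO against CGNL1-KO; −0.039, double-KO against CGN-KO; −0.047, double-KO against CGNL1-KO), and ERBB2 (0.003, double-KO against WT), and with the chromosome shift taken out for EGFR (−0.019, double-KO against WT; −0.17, double-KO against CGN-KO) and PHLDA1 (0.021, double-KO against WT). With 1 library left out, signs changed within these ranges: in CGN-KO cells ERBB3 −0.25 to 0.039, TGFA −0.10 to 0.30, and ERBB4 −0.055 to 0.028; in CGNL1-KO cells TGFA −0.24 to 0.16, HBEGF −0.16 to 0.14, and EGF −0.10 to 0.21; in double-KO cells ERBB2 −0.076 to 0.003, TGFA −0.23 to 0.17, and PHLDA1 −0.14 to 0.054; between lines HBEGF −0.076 to 0.22 (CGN-KO against CGNL1-KO), −0.039 to 0.088 (double-KO against CGN-KO), and −0.047 to 0.25 (double-KO against CGNL1-KO), and TGFA −0.13 to 0.13 (double-KO against CGNL1-KO). None of these genes passed the test in these comparisons except EGFR in double-KO against WT. Depth limits TGFA (28 to 75 reads).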
